A study of Mus musculus with 12 samples.

Results

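The genes described here are the chaperones of the endoplasmic reticulum (ER) and the components of the unfolded protein response, in mouse oocytes. They were 30 genes given by symbol, and all 30 had a row among the 24062 genes of the count table. They fell into 6 roles: 9 chaperones and co-chaperones, 5 lectin chaperones and disulfide isomerases, 4 genes of ER-associated degradation, 5 stress sensors and activating proteases, 4 transcription factors or their inhibitor, and 3 genes of the eIF2 alpha branch. RNA had been sequenced from 6 pools of females fed a high-fat diet (HFD) and 6 pools of females fed a control diet (CD). Each diet was given for 9 weeks before mating with vasectomized males, all animals ate the CD during mating, and oocytes were taken at day 0.5 after coitus. Each pool held 4 oocytes. The labels give 6 females per diet but not which female gave which pool, so p-values measure the spread between pools, which may be partly technical. Both diets carry the same product code in the labels, with the HFD called modified, so the make-up of the control feed is uncertain. Strain and age were not stated in those labels.

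Proteins that enter the ER fold there with the help of the Hsp70 chaperone BiP (Hspa5), the Hsp90 chaperone GRP94 (Hsp90b1), the lectins calnexin and calreticulin, and disulfide isomerases. When unfolded proteins accumulate, IRE1 (Ern1), PERK (Eif2ak3) and ATF6 signal across the membrane. IRE1 splices the Xbp1 message, PERK phosphorylates eIF2 alpha and so favours translation of Atf4 and then transcription of Ddit3 (CHOP), and ATF6 is cut free by the proteases of Mbtps1 and Mbtps2. Growing oocytes secrete the zona pellucida glycoproteins through this compartment, and eggs later carry stored messages with little or no transcription of their own. Gene counts hold no record of Xbp1 splicing, eIF2 alpha phosphorylation or ATF6 cleavage, so those steps were not measured.

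Depth ran from 8409491 to 13793598 gene counts in HFD pools and from 8556396 to 10477316 in CD pools. Expression is given as CPM, gene counts scaled to library size with TMM factors (n = 6 pools per diet throughout). The oocyte genes Gdf9 and Bmp15 were abundant in every pool, at no less than 543 and 241 CPM. Of 15 cumulus and granulosa markers, Amh, Amhr2 and Ptx3 had no read in any pool, and 94.1% of the summed level came from Serpine2. That sum ranged over 102 to 1807 CPM in HFD pools and 123 to 1349 CPM in CD pools. Several pools stood apart. HFD replicates 1 and 2 and CD replicates 2 and 4 held 3.84 to 9.40 CPM of Mos, the kinase that keeps an egg at metaphase, against 146 to 1702 CPM in the other 8 pools. They also held 543 to 616 CPM of Gdf9, against 4601 to 9642 CPM in the other 8. The sum of 10 oocyte markers was 1866 to 2314 CPM in these 4 pools, against 7218 to 16874 CPM in the other 8. Mos and Gdf9, by which the 4 pools were picked out, are among the 10 markers, and Gdf9 made up 54.01% of that sum over all pools. The gap in the sum is therefore in part fixed by that choice. Bmp15 overlapped between the sets, at 493 to 765 CPM in the 4 and 241 to 1880 CPM in the other 8. HFD replicate 3 held 3942 CPM of Zp3, against 11 to 195 CPM in the other pools. It also held 213 CPM of Cdk1, against at most 6.26 CPM in any other. In that pool 14755 genes had reads, against 12229 to 13052 in the others, though its depth was the lowest. Every count in 4 HFD pools (replicates 1, 2, 4 and 6) was even, and the counts were used as deposited. Whether reads were tallied 2 times there was not tested; if so, the depth and read counts printed for those pools are too high. With those counts halved, edgeR called 0 genes, with 2217 at an unadjusted p under 0.05.

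Levels per kilobase of the longest annotated transcript placed Creld2, a disulfide isomerase induced by ER stress, first among the 30 genes. Its HFD median was 241 CPM per kb, with a range of 157 to 323, and its CD median was 218 CPM per kb, with a range of 163 to 360. Its CD range lay wholly above that of the next gene, Dnajc3, an ER co-chaperone of BiP also known as p58IPK. Dnajc3 had a median of 74.8 CPM per kb in HFD and 97.9 CPM per kb in CD. In order of the CD median, Ppp1r15a (GADD34), Canx (calnexin), Sdf2l1, Hsp90b1 and Eif2s1 followed, and the range of each overlapped that of its neighbour. BiP itself ranked 11 of 30, with medians of 16.1 CPM per kb in HFD and 16.6 CPM per kb in CD, which in CD was higher than 74.6% of the genes tested for diet. The sensors were lower still. In CD pools Ern1 had a median of 7.37, Atf6 of 4.31 and Eif2ak3 of 3.23 CPM per kb.

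At the bottom of the order stood Herpud1, Xbp1 and Trib3, each with a CD median of 0. Herpud1, which helps to assemble the degradation complex in the ER membrane, had reads in 6 of 12 pools and at most 11 in any. Xbp1 likewise had reads in 6 pools, with at most 18. Trib3, a pseudokinase that is induced by ATF4 and CHOP in stressed cells, had reads in 2 pools, with at most 4. These 3 genes did not pass the filter on low counts, so 27 of the 30 genes were tested for diet. Without that filter edgeR tested all 30 and called 0 of them, which says little about the other 3 at so few reads.

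**Figure D1:**
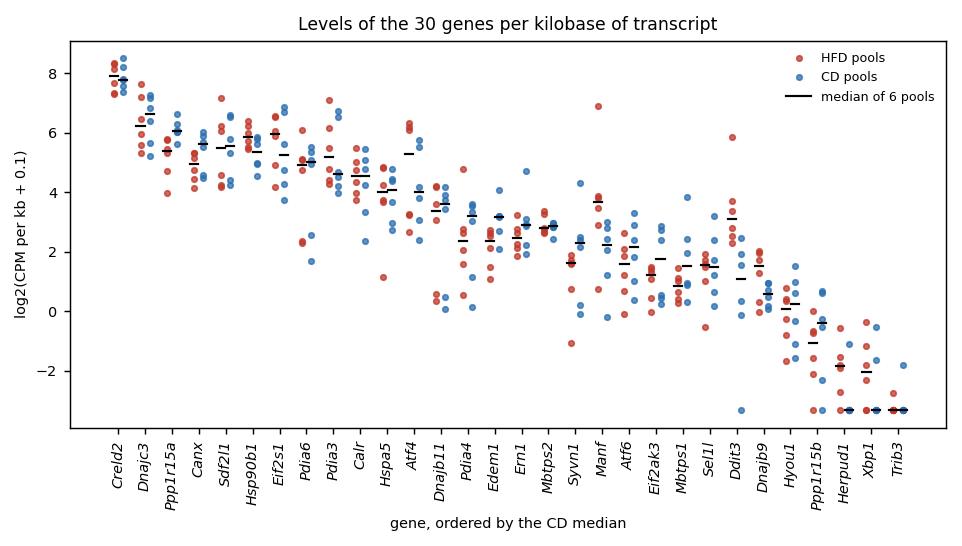
Levels of the 30 genes as log2(CPM per kb + 0.1), in the 6 HFD pools (left of each pair) and the 6 CD pools (right), with the genes ordered by their CD median. Each point is 1 pool and each short line the median of 6 pools; Creld2 lies at the top in both diets, while Herpud1, Xbp1 and Trib3 lie at or near 0 reads.

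A contrast among pools ran across both diets. The 4 pools low in Mos and Gdf9 were described with these genes only after their values were seen, so what follows is a description with no test. In these 4 pools (HFD replicates 1 and 2, CD replicates 2 and 4), 7 of the 27 tested genes had their 4 lowest values, where this order held for 6.97% of all genes tested. These 25.9% of the tested genes were Dnajb11, Pdia4, Pdia6, Sel1l, Syvn1, Atf6 and Ppp1r15b. Pdia3 and Eif2s1 had their 4 highest values there, an order held by 3.63% of all genes tested. The summed cumulus and granulosa markers, mostly Serpine2, were also lowest in these 4 pools, at 102 to 143 CPM against 326 to 1807 CPM in the other 8, and their part in this contrast was not tested. In bulk pools, fewer oocytes with a message and less of it per oocyte cannot be told apart.

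Pdia6, a disulfide isomerase that acts with BiP, showed the contrast clearly. Its level was 10.5 and 10.9 CPM in HFD replicates 1 and 2 and 57.6 to 147 CPM in the other HFD pools. It was 6.73 and 12.6 CPM in CD replicates 2 and 4 and 66.1 to 99.3 CPM in the other CD pools. Both diets therefore held low and high pools, with a wide gap between them. Dnajb11 (ERdj3), a co-chaperone that delivers clients to BiP, stood at 2.40 to 3.5 CPM in the 4 pools, against 21.0 to 45.6 CPM in the other 8. Syvn1 (HRD1), the ubiquitin ligase of ER-associated degradation, stood at 1.30 to 5.52 CPM in the 4, against 10.1 to 68.1 CPM in the other 8. Sel1l, the adaptor of that ligase, stood at 3.73 to 12 CPM in the 4, against 13.9 to 57.8 CPM in the other 8. Both partners of the degradation ligase were thus low in the same pools.

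Pdia3 (ERp57), the isomerase that works on glycoproteins held by calnexin and calreticulin, ran the other way from Pdia6. It stood at 199 and 377 CPM in HFD replicates 1 and 2, against 53.7 to 124 CPM in the other HFD pools. In CD it stood at 255 and 291 CPM in replicates 2 and 4, against 42.6 to 70.4 CPM in the others. Isomerase genes therefore did not share 1 order across the pools. Eif2s1, the alpha subunit of the initiation factor that PERK phosphorylates, stood at 312 to 394 CPM in the 4 pools, against 44.7 to 224 CPM in the other 8. Atf4, the transcription factor made when eIF2 alpha is phosphorylated, stood at 79.0 to 139 CPM in the 4, while the other 8 ran from 8.89 to 31.0 CPM except HFD replicate 3 at 124 CPM. BiP and calreticulin overlapped between the sets, but only through HFD replicate 2, at 48.8 CPM of Hspa5 and 44.4 CPM of Calr. The rest of the 4 held 7.78 to 28.2 CPM of Hspa5 and 11.1 to 29.2 CPM of Calr. The other 8 pools held at least 45.8 and 34.2 CPM. HFD replicate 1 was the lowest of all pools for Hspa5.

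**Figure D2:**
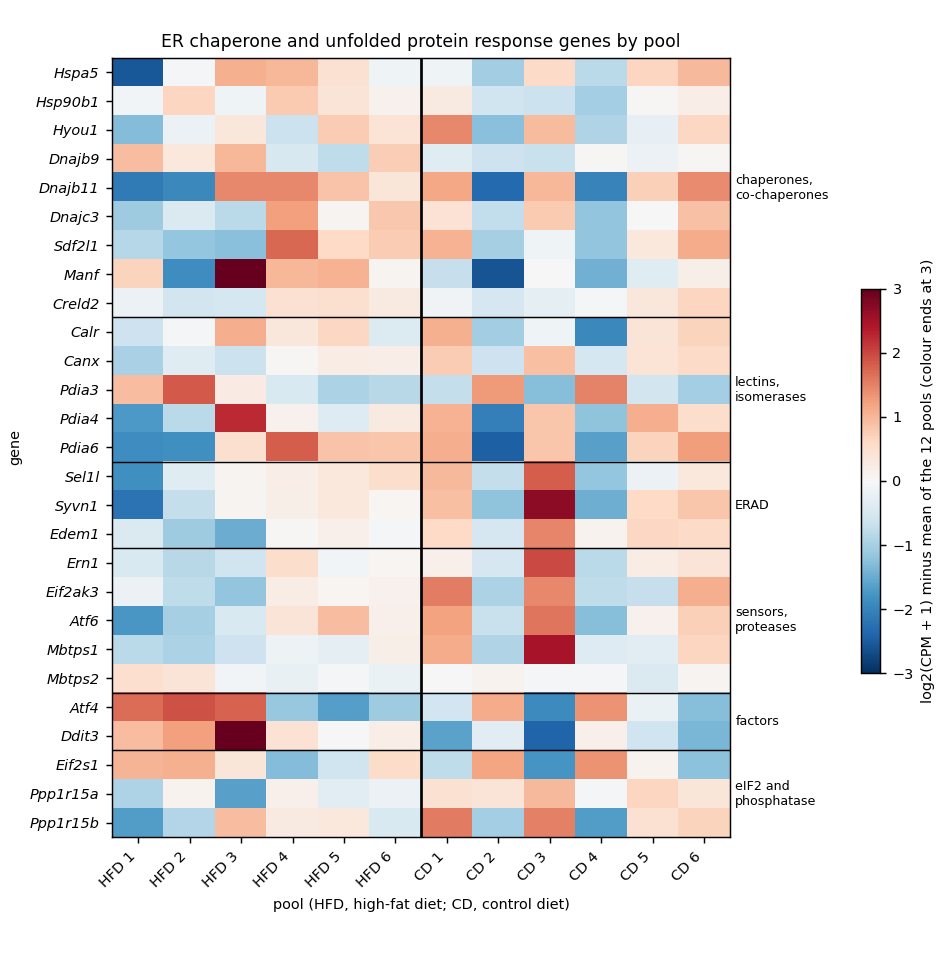
Heat map of the 27 tested genes (rows, by role) in the 6 HFD pools (left of the line) and 6 CD pools (right), coloured by log2(CPM + 1) minus the gene's mean over all 12 pools, with the colour scale ending at 3 in each direction. HFD 1, HFD 2, CD 2 and CD 4 show low Dnajb11, Pdia6 and Syvn1 beside high Pdia3 and Eif2s1, and Manf and Ddit3 are highest in HFD 3.

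**Figure D3:**
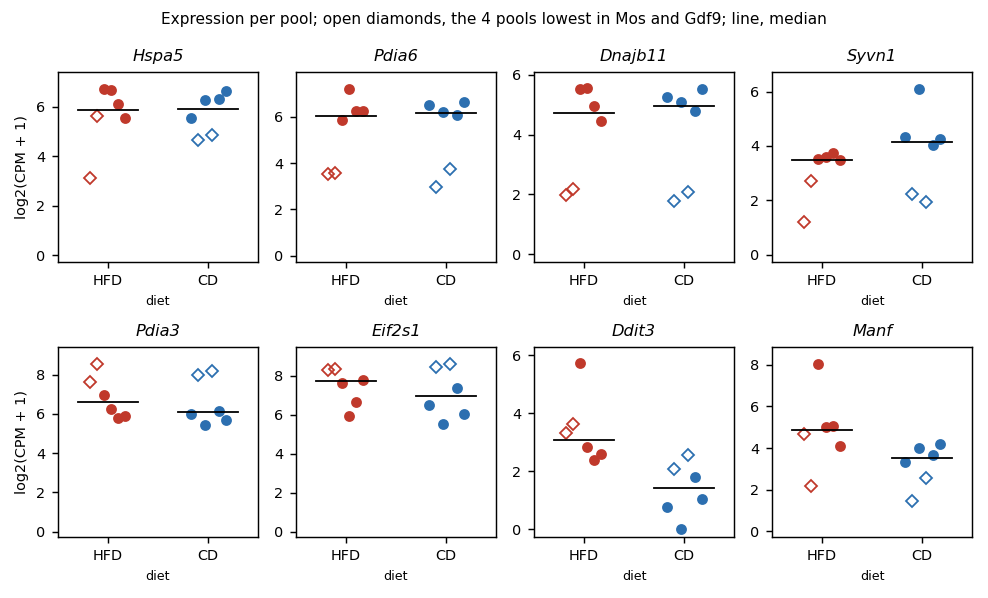
Level per pool, as log2(CPM + 1), of 8 genes in HFD (left, red) and CD (right, blue), with a line at the median of 6 pools. Open diamonds mark the 4 pools lowest in Mos and Gdf9, which lie below the other 8 for Pdia6, Dnajb11 and Syvn1 and above them for Pdia3 and Eif2s1.

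The promoters of the genes are shown because ER stress acts on many of them through short shared sequences. The genes above differ in whether an exact match to one was found. RefSeq promoters (GRCm38.p6, 250 bases before to 50 after the gene start) were found for 26 of the 30 genes, all but Atf6, Hyou1, Manf and Ppp1r15b. The ER stress response element (ERSE, CCAAT and CCACG with 9 bases between them), to which NF-Y and ATF6 or XBP1 bind, was in 8 of the 26, read on either strand: Calr, Canx, Creld2, Dnajc3, Hsp90b1, Hspa5, Pdia6 and Syvn1. It was in 0.119% of all 32851 promoters, and in 0.197% of the 9621 promoters of genes tested for diet. The shorter ERSE-II (ATTGG and CCACG with 1 base between them) was in Dnajb11 and Herpud1, against 0.0365% of all promoters and 0.0728% of those of tested genes. The unfolded protein response element (UPRE, TGACGTGG) was in 0 of the 26, against 0.676% of all and 0.863% for tested genes. The element bound by ATF4 with C/EBP partners (CARE, TGATGNAA) was in Herpud1 and Trib3, against 3.97% of all and 2.41% for tested genes. No match overlapped another. In the sequences below, 5′ to 3′ on the gene's strand, capitals mark an ERSE or, in Dnajb11, an ERSE-II. Those of Pdia6, Syvn1 and Dnajb11 belong to genes lowest in the 4 pools, and that of Pdia3 to one highest there, with Hspa5 as the best-known case of an ERSE.
Hspa5 (chr2:34771840-34772139, plus strand): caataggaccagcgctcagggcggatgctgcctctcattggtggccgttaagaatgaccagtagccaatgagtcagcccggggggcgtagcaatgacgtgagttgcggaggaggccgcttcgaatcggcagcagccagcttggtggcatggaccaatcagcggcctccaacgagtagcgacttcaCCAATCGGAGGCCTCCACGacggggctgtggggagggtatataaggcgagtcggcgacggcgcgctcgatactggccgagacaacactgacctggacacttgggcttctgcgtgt
Pdia6 (chr12:17266339-17266638, plus strand): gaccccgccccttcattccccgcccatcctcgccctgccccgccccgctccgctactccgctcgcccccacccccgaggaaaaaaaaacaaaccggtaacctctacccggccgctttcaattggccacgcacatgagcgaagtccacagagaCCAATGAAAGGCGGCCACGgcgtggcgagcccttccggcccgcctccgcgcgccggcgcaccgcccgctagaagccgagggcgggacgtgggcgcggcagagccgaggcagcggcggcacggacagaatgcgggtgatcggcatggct
Syvn1 (chr19:6046326-6046625, plus strand): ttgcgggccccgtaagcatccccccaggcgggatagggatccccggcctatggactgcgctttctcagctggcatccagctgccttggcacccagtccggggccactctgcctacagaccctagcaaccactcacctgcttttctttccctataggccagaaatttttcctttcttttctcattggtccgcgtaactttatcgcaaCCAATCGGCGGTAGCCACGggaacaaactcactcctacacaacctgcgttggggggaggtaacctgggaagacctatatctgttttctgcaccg
Dnajb11 (chr16:22857595-22857894, plus strand): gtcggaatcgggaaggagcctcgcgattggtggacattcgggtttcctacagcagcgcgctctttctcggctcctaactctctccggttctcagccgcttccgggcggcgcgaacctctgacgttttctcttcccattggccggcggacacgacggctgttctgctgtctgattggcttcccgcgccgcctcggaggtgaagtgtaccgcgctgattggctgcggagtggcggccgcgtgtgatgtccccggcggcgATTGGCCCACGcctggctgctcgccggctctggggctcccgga
Pdia3 (chr2:121413652-121413951, plus strand): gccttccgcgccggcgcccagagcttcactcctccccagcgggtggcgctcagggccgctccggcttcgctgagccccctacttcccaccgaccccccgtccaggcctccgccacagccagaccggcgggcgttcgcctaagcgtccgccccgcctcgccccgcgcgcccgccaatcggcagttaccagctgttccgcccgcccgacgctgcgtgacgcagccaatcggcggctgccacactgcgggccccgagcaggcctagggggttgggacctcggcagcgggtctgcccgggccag

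The ERSE of Hspa5 covered bases 186 to 204 of its 300, that of Pdia6 bases 153 to 171 and that of Syvn1 bases 207 to 225. The other genes with an ERSE overlapped between the 4 pools and the other 8. In these overlapping genes both ends of the range were still lower in the 4 pools. Hspa5, for example, stood at 7.78 to 48.8 CPM against 45.8 to 106 CPM, and Creld2 at 215 to 301 CPM against 219 to 492 CPM. Whether the element has a part in the order across pools was not tested. No exact match to any of the 4 elements was found in the promoters of Pdia3, Eif2s1, Pdia4, Sel1l, Ddit3 or Atf4, which says only that these letters are not in those windows. The window of Pdia3 holds CCAAT and CCACA with 9 bases between them, which differs from an ERSE only in the last letter. Near-matches were not searched for in the other promoters.

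The comparison of the diets asked whether the HFD altered these messages in the oocyte. None of the 27 tested genes passed the threshold (edgeR quasi-likelihood test, adjusted p under 0.05 over 9935 genes), where 0.0% of all genes were called. No member had HFD and CD values without overlap, an order found with HFD higher in 1.17% and lower in 1.28% of all genes. At an unadjusted p under 0.05, 5 of the 27 (18.5%) were counted, against 22.3% of all genes tested, so their share was near the background. They were Ddit3 and Manf, which were higher in HFD, and Edem1, Mbtps1 and Ppp1r15a, which were lower. The median log2 fold change, HFD minus CD, was 0.0055 over the 27 and 0.040 over all genes tested, with 16 of the 27 above 0 and 11 below (40.7%, against 48.2% of all genes). Pools of 1 diet varied widely, with a biological coefficient of variation of 64.0% over all genes. With DESeq2, Ddit3 and Manf passed among the 27 (adjusted p = 0.0150 and 0.0204), where 7.42% of genes with an adjusted p were called, and limma-voom called 35 genes and none of the 27.

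Ddit3 encodes CHOP, the transcription factor that PERK signalling induces and that promotes death of cells under lasting stress. The gene lies at chr10:127290774-127296288 (mm10, plus strand). It stood at 9.08, 11.4, 51.7, 6.15, 4.30 and 5.07 CPM in HFD replicates 1 to 6. It stood at 0.723, 3.27, 0, 4.86, 2.51 and 1.05 CPM in CD replicates 1 to 6. All 6 HFD pools lay above the CD mean of 2.07 CPM, and the diets overlapped only where CD replicate 4 exceeded HFD replicate 5. The log2 fold change was 2.82 ± 0.88 (SE; edgeR, adjusted p = 0.105), and it was 1.79 without HFD replicate 3. These are small counts, at 42 to 519 reads per HFD pool and 0 to 39 per CD pool. Exons of Mars on the other strand overlap those of Ddit3, and the library chemistry does not mark strand. The same holds for Dnajb9, Hsp90b1, Pdia3, Pdia6, Ppp1r15a and Syvn1, which overlap a gene on the other strand. On their own strand Manf overlaps Rbm15b, Mbtps2 overlaps Yy2 and Pdia4 overlaps Mir704, so their reads are uncertain to that extent.

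The order of the diets for Ddit3 was seen in both sets of pools. Among the 4 pools low in Mos, HFD held 9.08 and 11.4 CPM and CD 3.27 and 4.86 CPM. Among the other 8, HFD held 4.30 to 51.7 CPM and CD 0 to 2.51 CPM. Ddit3 was the only 1 of the 27 genes whose HFD values lay above CD without overlap in both sets, as did those of 3.98% of all genes tested, and none lay below CD in both, against 3.14%. The count of 1 in 27 is near that background. Adding a term for the 4 pools and leaving out HFD replicate 3, an alternative chosen after seeing the data, gave 1.90 on the log2 scale (adjusted p = 0.0486 by edgeR), with 7.36% of all genes called.

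Of the 9 chaperones and co-chaperones, 8 had a log2 fold change above 0, most of them smaller than their SE, and none passed the threshold. Manf, a secreted ER protein that stabilises BiP with its clients, ranged over 3.5 to 265 CPM in HFD with a median of 28.1, and over 1.73 to 17.5 CPM in CD with a median of 10.4. HFD replicate 3 stood far above all other pools at 265 CPM, and HFD replicates 2 and 6 lay within the CD range. The log2 fold change was 2.63 ± 0.86 (SE; edgeR, adjusted p = 0.112), with 5 of 6 HFD pools above the CD mean, and it was 1.11 without HFD replicate 3. In the 8 libraries with odd counts it was 3.79 (edgeR, adjusted p = 0.0189), where 4.03% of all genes were called. That fit holds only 2 HFD pools, replicates 3 and 5, of which replicate 3 is the one at 265 CPM. BiP, the Hsp70 that also holds the sensors inactive, ranged over 7.78 to 106 CPM in HFD with a median of 59.0, and over 24.1 to 99.8 CPM in CD with a median of 60.9. The diets overlapped nearly throughout. The log2 fold change of Hspa5 was 0.10 ± 0.51 (SE; edgeR, adjusted p = 0.927).

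Hsp90b1 (GRP94) ranged over 123 to 234 CPM in HFD with a median of 163, and over 65.6 to 162 CPM in CD with a median of 113. All 6 HFD pools lay above the CD mean, though 3 CD pools overlapped them. On the log2 scale Hsp90b1 differed by 0.55 ± 0.28 (SE; edgeR, adjusted p = 0.262). Dnajb9 (ERdj4), a co-chaperone that represses IRE1, had 0.86 ± 0.45. The other 5 members of this role lay close to 0, apart from Hyou1 at −0.44 ± 0.62, which was −0.059 without CD replicate 1. They included Creld2 at 0.0024 ± 0.28 and Sdf2l1, a partner of ERdj3, at 0.10 ± 0.57. Creld2 varied least of the 9 between pools, by 2.29-fold from its lowest to its highest, and Manf most, by 153-fold.

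Among the lectins and isomerases no member was counted at an unadjusted p under 0.05. Canx, the membrane-bound lectin of the folding cycle, averaged 129 ± 40.5 CPM in HFD and 190 ± 76.3 CPM in CD (SD, n = 6 each). On the log2 scale this difference was −0.56 ± 0.32 (SE; adjusted p = 0.319 by edgeR). All 6 HFD pools lay below the CD mean of Canx. Calr, its soluble relative and a calcium store protein, had 0.14 ± 0.47, Pdia3 0.20 ± 0.60, and Pdia6 0.11 ± 0.70 on the same scale. With each pool left out in turn these ranged from −0.11 to 0.40 for Calr, −0.34 to 0.61 for Pdia3 and −0.35 to 0.33 for Pdia6. Pdia4 had 0.11 ± 0.71, but −0.85 without HFD replicate 3, which held 65.6 CPM against 2.40 to 28.8 CPM in all other pools. Fold changes of these isomerases were thus small beside their spread between pools, which reached 27.3-fold for Pdia4.

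For each of the 3 tested genes of ER-associated degradation all 6 HFD pools lay below the CD mean. How many of all genes did so was not counted. For Sel1l that mean was raised by CD replicate 3 at 57.8 CPM. Its HFD median was slightly above its CD median, at 2.80 and 2.69 CPM per kb. Herpud1, the gene of this role that the filter on low counts removed, averaged 0.398 CPM in HFD and 0.121 CPM in CD. Edem1, a lectin that hands misfolded glycoproteins to degradation, ranged over 11.7 to 38.4 CPM in HFD with a median of 29.0, and over 24.0 to 96.4 CPM in CD with a median of 52.0. The diets overlapped through CD replicates 2 and 4. The log2 fold change was −0.98 ± 0.38 (SE; edgeR, adjusted p = 0.158). Syvn1 had −1.32 ± 0.70 and Sel1l −0.57 ± 0.54, but without CD replicate 3 these were −0.50 and −0.094. That pool held 68.1 CPM of Syvn1, against 2.87 to 19 CPM in the other CD pools.

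The values of Ern1, Atf6 and Mbtps1, among the sensors and proteases, also rested in large part on CD replicate 3. Ern1 (IRE1) ranged over 24.7 to 65.0 CPM in HFD with a median of 37.4, and over 25.4 to 181 CPM in CD with a median of 51.2. Only CD replicate 3 lay above the HFD range. Ern1 had a difference on the log2 scale of −0.73 ± 0.45 (SE; edgeR, adjusted p = 0.346), and it was −0.15 without that pool. Eif2ak3 (PERK) ranged over 3.99 to 12.3 CPM in HFD with a median of 9.96, and over 4.90 to 32.0 CPM in CD with a median of 14.6. CD replicates 1, 3 and 6 lay above all HFD pools and the other CD pools within their range. Its log2 fold change was −0.93 ± 0.53 (SE; edgeR, adjusted p = 0.314).

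Atf6, the sensor that becomes a transcription factor when cleaved, ranged over 6.00 to 43.9 CPM in HFD with a median of 20.8, and over 8.72 to 70.6 CPM in CD with a median of 31.2. The diets overlapped over most of the range. Atf6 had a log2 difference of −0.66 ± 0.55 (SE; edgeR, adjusted p = 0.501), or −0.36 without CD replicate 3. Mbtps1, the site-1 protease that makes the first cut in ATF6, ranged over 4.79 to 11.5 CPM in HFD with a median of 7.28, and over 4.90 to 60.9 CPM in CD with a median of 12.1. All 6 HFD pools lay below its CD mean, which CD replicate 3 raised. Mbtps1 had a log2 fold change of −1.42 ± 0.56 (SE; edgeR, adjusted p = 0.163), or −0.69 without that pool. Mbtps2, the site-2 protease that completes the release, was the steadiest of the genes, at 29.3 to 49.0 CPM in HFD and 25 to 37.2 CPM in CD, with a log2 fold change of 0.12 ± 0.26.

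Of the transcription factors, Atf4 ranged over 10.8 to 139 CPM in HFD with a median of 66.9, and over 8.89 to 93.1 CPM in CD with a median of 27.4. High values came from HFD replicates 1, 2 and 3 and from CD replicates 2 and 4. Its log2 fold change was 0.76 ± 0.73 (SE; edgeR, adjusted p = 0.572). Xbp1, which the filter on low counts removed, ranged over 0 to 1.46 CPM in HFD with a median of 0.310, and over 0 to 1.27 CPM in CD with a median of 0. In the eIF2 alpha branch, Ppp1r15a (GADD34), the stress-induced phosphatase subunit that restores translation, ranged over 44.2 to 156 CPM in HFD with a median of 118, and over 137 to 274 CPM in CD with a median of 188. All 6 HFD pools lay below the CD mean, and only HFD replicates 2 and 4 reached the CD range. HFD minus CD, Ppp1r15a had a log2 fold change of −0.85 ± 0.31 (SE; edgeR, adjusted p = 0.134). The constitutive subunit gene Ppp1r15b had −0.92 ± 0.99 with at most 93 reads in a pool, and Eif2s1 had 0.14 ± 0.55. Ddit3 and Ppp1r15a, both known as products of the PERK branch, thus differed in opposite directions without passing the threshold.

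**Figure D4:**
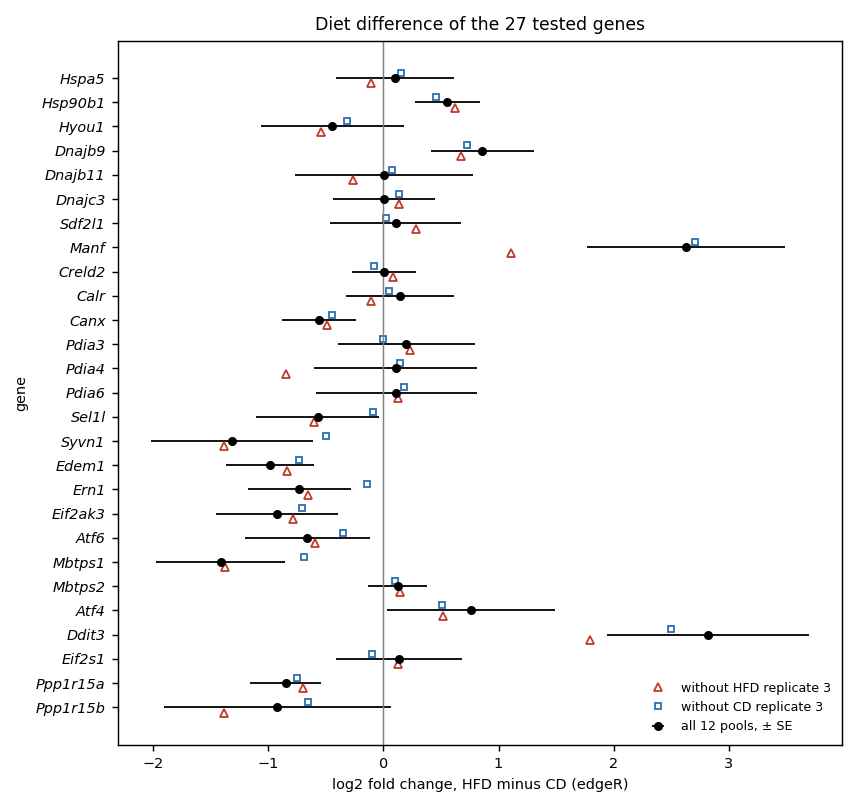
Log2 fold change, HFD minus CD, of the 27 tested genes (edgeR; black points with bars of ± 1 SE, all 12 pools), with the value without HFD replicate 3 (red triangles) and without CD replicate 3 (blue squares). Manf stands at 1.11 without HFD replicate 3, and Ern1 and Syvn1 stand at −0.15 and −0.50 without CD replicate 3.

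Within the 8 pools not low in Mos, HFD values of Canx, Syvn1, Edem1 and Ppp1r15a lay wholly below CD values, where 6.14% of all genes tested did so. Ddit3 alone lay wholly above, against 7.43%. Canx stood at 93.1 to 170 CPM in HFD and 196 to 276 CPM in CD there, and Ppp1r15a at 44.2 to 156 CPM in HFD and 181 to 274 CPM in CD. In the 4 pools low in Mos none of these 4 genes separated the diets. There, 6 genes were higher in HFD without overlap (Hsp90b1, Dnajb9, Calr, Mbtps2, Atf4 and Ddit3) and 1 lower (Eif2s1), against 24.8% and 22.7% of all genes tested. With only 2 pools per diet such separation was common, and the share of these genes was near the background for HFD higher and under it for HFD lower. Leaving out the 4 pools, chosen after seeing the data, called none of the 27 genes by edgeR, with 8 at an unadjusted p under 0.05, against 24.3% of all genes in that fit, and the smallest adjusted p among them was 0.130.

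Transcript length moved with the diet difference. The slope, over genes, of a pool's log2(CPM + 1) minus the mean of all pools on log2 transcript length was −0.151 ± 0.151 in HFD pools and 0.151 ± 0.185 in CD pools (SD, n = 6 each; exact permutation test, two-sided, p = 0.00433). The median log2 fold change of all genes was 0.85 in the shortest of 5 transcript length classes and −0.24 in the longest. Ddit3, at 890 nt, was the shortest of the 30 genes, and Edem1, Ern1 and Atf6, at 5817, 6946 and 7246 nt, were among the longest. With each library's length trend removed, the log2 fold change was 1.68 for Ddit3, 2.42 for Manf, −0.73 for Edem1, −0.42 for Ern1 and −0.74 for Ppp1r15a. No gene passed (edgeR, smallest adjusted p among the 27 genes = 0.219). An unadjusted p under 0.05 was found for 6 of the 27 genes and for 1526 of all 9855 genes in that fit.

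Further genes of the ER folding and export machinery were taken from 8 lists with 96 genes, of which 78 were tested. At an unadjusted p under 0.05, 14 of them were higher in HFD and 2 lower, against 13.4% and 8.89% of all genes tested, and 0 passed the adjustment. In the translocon and signal peptidase, which bring new proteins into the ER, 8 of 15 were higher and 0 lower, with a median log2 fold change of 0.90. Sec62, part of the post-translational entry route, averaged 432 ± 151 CPM in HFD and 176 ± 47.3 CPM in CD (SD, n = 6 each) and its diets did not overlap, as in 2.45% of all genes tested. Its log2 fold change was 1.30 ± 0.29 (SE; edgeR, adjusted p = 0.0913). Sec61g, a small subunit of the channel, had 2.51 ± 0.64, and Spcs1, a signal peptidase subunit, 2.18 ± 0.57. All 6 HFD pools lay above the CD mean for both, but HFD replicate 3 stood far above the rest. It held 52.2 CPM of Sec61g against an HFD median of 8.65 CPM, and 280 CPM of Spcs1 against 52.0 CPM. Fold changes without that pool are not given for these lists. In the oligosaccharyl transferase, which adds glycans, 3 of 8 were higher: Ostc (1.09 ± 0.28), Dad1 (1.87 ± 0.50) and Krtcap2 (2.37 ± 0.68). HFD replicate 3 was again the highest pool for Dad1 (296 CPM, HFD median 74.4) and Krtcap2 (32.1 CPM, HFD median 4.22). The translocon list had a median transcript length of 1862 nt, against 3105 nt over all genes tested, and the part of length in this result was not tested for the list.

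The other 6 lists held few such genes. In oxidative folding 0 of 11 were higher and 1 lower, Txndc11 at −1.43 ± 0.62, followed in p by Erp44 (0.88) and Txndc12 (1.59). In retrotranslocation 2 of 14 were higher, Derl3 (2.47) and Erlec1 (0.91), and 1 lower, Herpud2 (−0.83). Derl3 stood at 123 CPM in HFD replicate 3 against an HFD median of 7.54 CPM, with 3 of 6 HFD pools above the CD mean. Among the eIF2 kinases, eIF2 and eIF2B, 1 of 8 was higher, Eif2s2 at 0.81 ± 0.28, with Eif2ak1, the haem-regulated kinase, at −1.07 and Eif2b4 at 1.53. Eif2b4 was also highest in HFD replicate 3, at 90.9 CPM against an HFD median of 10.5 CPM. None of the 7 tested targets of ATF4 and CHOP was counted, with Cebpg at −0.45, Slc7a11, a cystine transporter, at −0.54 and Cebpb at 0.94. None was counted in the glycan and calnexin list of 6 (Edem2 −0.65, Edem3 −0.87, Uggt2 0.51) or among 9 other stress transducers and partners (Nfyb 0.97, Creb3 1.05, Nfyc −0.47).

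The order across pools extended to some of these lists. Of 11 oxidative folding genes, 7 had their 4 lowest values in the 4 pools low in Mos, against 6.97% of all genes tested. Over all 8 lists it was 19 of 78. It held for 3 of 9 other stress transducers and partners and 2 of 7 targets of ATF4 and CHOP. In the oligosaccharyl transferase it held for 2 of 8, and in the glycan and calnexin list for 1 of 6. The remaining lists had 2 of 15 in the translocon list, 1 of 8 among the eIF2 kinases, eIF2 and eIF2B, and 1 of 14 in retrotranslocation. The oxidative folding genes were P4hb, Txndc5, Txndc11, Erp29, Erp44, Dnajc10 and Ppib, of which those not named above are named after their values were seen. P4hb, the classical protein disulfide isomerase, stood at 2.59 to 5.98 CPM in the 4 pools, against 56.4 to 364 CPM in the other 8. Over all 8 lists none of the 78 tested genes had its 4 highest values there, against 3.63% of all genes tested. That is near the background, so it does not set Pdia3 and Eif2s1 apart.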

How the data were processed

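RNA-seq libraries were made from 12 pools of mouse oocytes. Libraries came from SMART-Seq v4 cDNA cut with Nextera XT, per the labels' protocols, a chemistry that does not mark strand. The deposited table holds raw read counts per gene symbol, not normalised by the authors, for 24062 genes. Per the submitters' processing notes, STAR, HTSeq 1.0.0, DESeq2 1.0.19 and the build mm10 were used. The annotation and the counting options were not stated. The 5 lines of unassigned reads that the counter adds were left out (66.5% to 72.9% of tallied reads in HFD and 62.3% to 66.6% in CD).

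Counts were tested with edgeR 4.0.16 in R 4.3.3 (TMM, default filter on low counts, robust quasi-likelihood F-test, diet as the only term), with Benjamini-Hochberg adjustment over 9935 genes and a threshold of 0.05. The fits were run on simulated counts with known changes, with a pass mark set only at a spread below that of these pools. The simulation had no pools that stood apart and no length trend, so it gives no measure of power in these data. Each standard error is the log2 fold change divided by the square root of F. Gene lengths are those of the longest basic transcript in GENCODE M21, which shares the build, and 99.2% of tested genes had one. Alternatives were DESeq2 1.42.0, limma 3.58.1 (voom with quality weights), other scalings and filters, length correction, a replicate block, halved all-even counts and leaving out pools. Reads had no molecular identifiers, so counts are not molecules. Ranges were given for genes with an unadjusted p under 0.05 and for Hspa5, Hsp90b1, Ern1, Eif2ak3, Atf6, Xbp1, Atf4 and Ddit3, and up to 3 genes per further list were named by smallest p. The genes and lists were chosen with earlier results of these data known.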

Additional observations from a re-analysis of the deposited data

Results flagged for a closer look

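For 4 of 22 sets of 6 pools examined (11 genes in each diet), 1 pool lay far from the other 5 of its diet. The rule flags about 1 set in 20 by chance only for normally distributed values. It was applied to CPM without a log scale, and some of the genes were chosen by p in these data. The count of flags therefore cannot be read against that rate. Manf in HFD replicate 3 stood at 265 CPM, with the other HFD pools at 3.5 to 32.4 CPM. Ddit3 in HFD replicate 3 stood at 51.7 CPM, with the rest of its diet at 4.30 to 11.4 CPM. Ern1 in CD replicate 3 stood at 181 CPM, with the other CD pools at 25.4 to 59.1 CPM. Mbtps1 in CD replicate 3 stood at 60.9 CPM, with the rest of its diet at 4.90 to 23.0 CPM. HFD replicate 3 was the highest pool for 6 of the 27 tested genes and for 22.6% of all genes tested, and CD replicate 3 for 8 of the 27 and for 20.2% of all genes tested.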

How the results depend on the processing

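The counts of calls depended on the tool and on the terms in the fit. By edgeR 0 of 9935 genes passed, with 2215 at an unadjusted p under 0.05, while DESeq2 called 709 genes, 2 of them among the ER genes (Ddit3 and Manf), and limma-voom with quality weights called 35 and none of the ER genes. The libraries with odd counts alone (2 HFD and 6 CD) gave 456 calls, 1 of them an ER gene (Manf). A term for the 4 pools low in Mos gave 280 calls and none of the ER genes, and that term without HFD replicate 3 gave 740, 1 of them Ddit3. With each pool left out in turn, 0 genes and 0 ER genes were called. The median log2 fold change of the tested ER genes ranged from −0.32 to 0.074 over those fits. Scaling by total counts alone gave a median of −0.064 over all genes, against 0.040 with TMM, and 11 ER genes above 0 and 16 below. The log2 fold change of Hspa5 turned to −0.23 with limma-voom, −0.045 with the replicate block, −0.030 without replicate 3 of both diets and −0.0022 with the term and without HFD replicate 3, and ranged from −0.11 to 0.33 with each pool left out. That of Atf4 turned to −0.020 with limma-voom and −0.067 with the term and without HFD replicate 3. The causes were not tested. Same-numbered pools did not deviate together (correlations of −0.51 to 0.59), and only numbers 2 and 6 matched best with their own, so the numbers do not pair the pools, and the replicate block called 0 genes, with 1255 at an unadjusted p under 0.05.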
